A study of Mus musculus with 24 samples.

Results

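The dose series of a berry phenolic extract was read in mouse pancreas across 16 arrays, the 4 of each group titled for water, 0.1X, 1X and 3X, out of 24 arrays in the whole series. Male C57BL/6J mice, bought at 3 weeks of age and caged singly under a reversed light cycle, were fed a diet with 60% fat, and every group used here, water included, shared that diet for 12 weeks before the tissue was taken. The study had 12 mice in a group, of which 4 arrays a group were read. The extract, PAE, holds the phenolic compounds of an alcohol-free fermented blackberry and blueberry beverage and was given in the drinking water, which brought anthocyanins at 1.1 (0.1X), 9.0 (1X) and 18.9 (3X) mg for each kg of body weight a day. The highest dose is titled 3X and is called 2X in the treatment protocol, and the mg values put it nearer to 2X. Whether every array came from its own mouse is not stated, so p-values reflect the spread from array to array, part of which may be technical. The beverage itself (AFFB, 8.4 mg per kg per day) and sitagliptin (150 mg per L), with 4 arrays each, entered the fit to estimate the spread.

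The pancreas is mostly acinar tissue, whose cells make digestive enzymes on a dense endoplasmic reticulum, with islets of hormone-secreting cells scattered through it. Anthocyanins are plant pigments whose breakdown products reach the tissues in small amounts. Fatty acids act in cells partly through the PPAR nuclear receptors, which switch on genes that burn and store fat, and a full or overloaded endoplasmic reticulum switches on chaperone genes through the unfolded protein response. Markers of the labelled tissue were bright throughout, with the mean of 24 digestive enzyme genes between 13.6 and 13.8 log2 units on all 16 arrays.

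Each of 15328 probes detected on at least 4 of the 24 arrays was tested for a straight slope of log2 signal over the dose order (scores 0, 1, 2 and 3), and again over mg per kg per day. In limma, with a Benjamini-Hochberg adjusted p under 0.05 as the threshold, 24 probes, 0.157% of those tested, had a slope over the dose order, 13 higher (0.0848%) and 11 lower (0.0718%). A slope says that a level went one way with dose, and the shape in which it did so was read from 7 fixed templates fitted to the 16 arrays: a step already reached at 0.1X, an even grade over the dose order, a grade in proportion to mg, a step at 1X, and a change at 3X only, at 0.1X only or at 1X only. Among the 24 probes, 10 were closest to the even grade, 8 to the step at 1X, 5 to the step at 0.1X and 1 (Igdcc4) to the grade by mg. None was closest to a change at a single dose. A test for a slope over the dose order selects against those shapes and favours the even grade. Over all kept probes, without regard to any test, 6.03% were closest to the even grade, 5.30% to the grade by mg, 15.3% to the step at 1X, 19.0% to the step at 0.1X, 12.9% to 3X only, 19.5% to 0.1X only and 22.0% to 1X only.

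**Figure D1:**
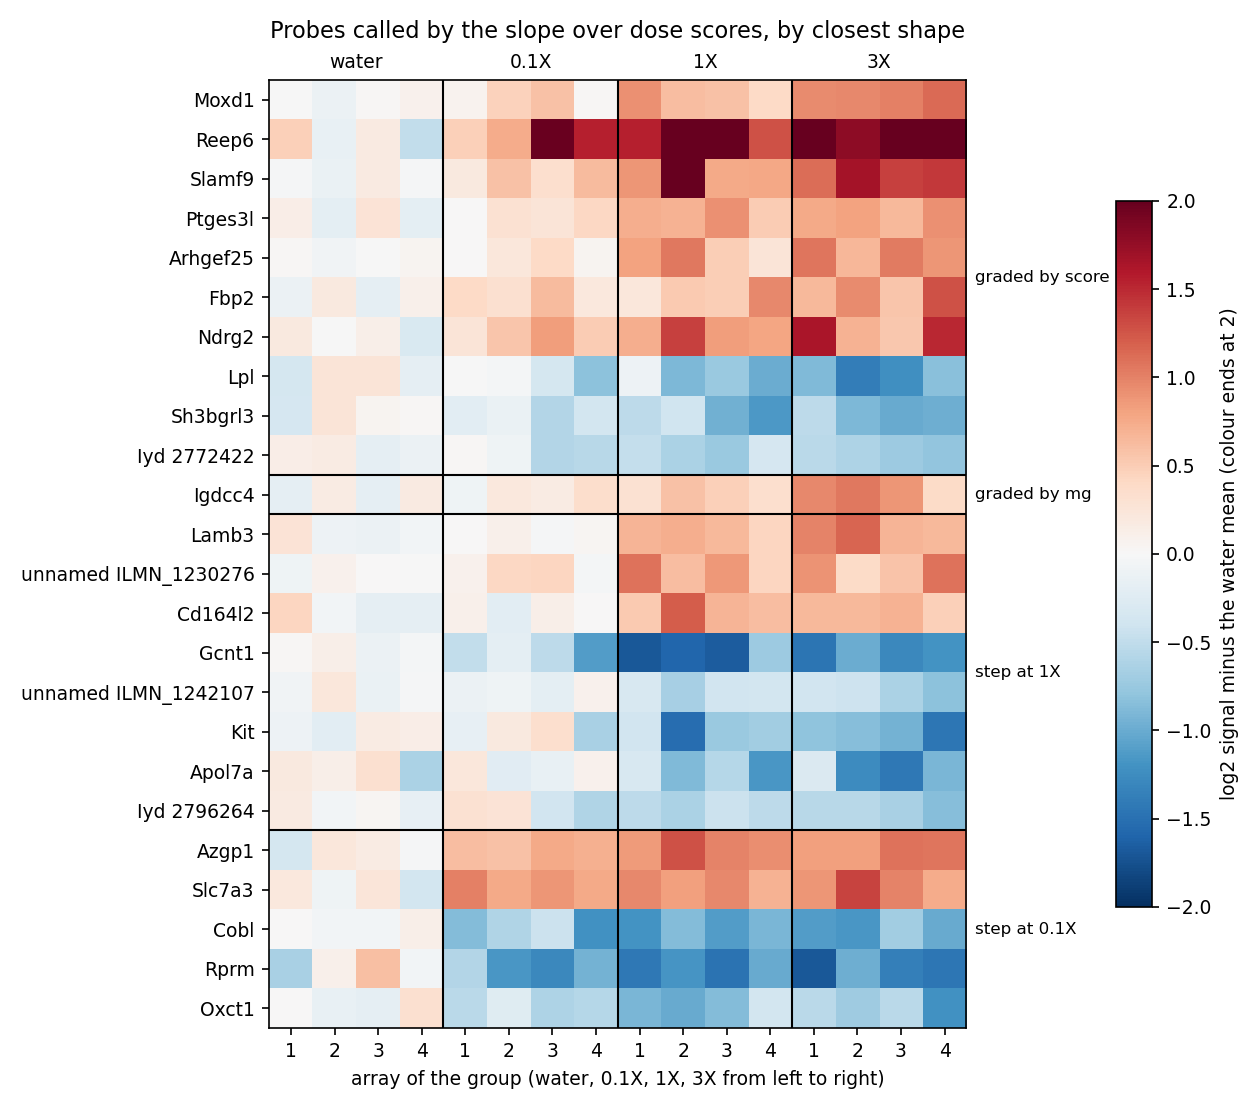
Heat map of the 24 probes with a slope over the dose order, 1 row each, on the 16 arrays in columns (replicates 1 to 4 of water, 0.1X, 1X and 3X). Colour is log2 signal minus the mean of the 4 water arrays, red higher and blue lower, and black lines separate groups and closest shapes. Rows of the step at 0.1X are coloured from the 0.1X arrays on, and most rows of the step at 1X from the 1X arrays on.

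**Figure D2:**
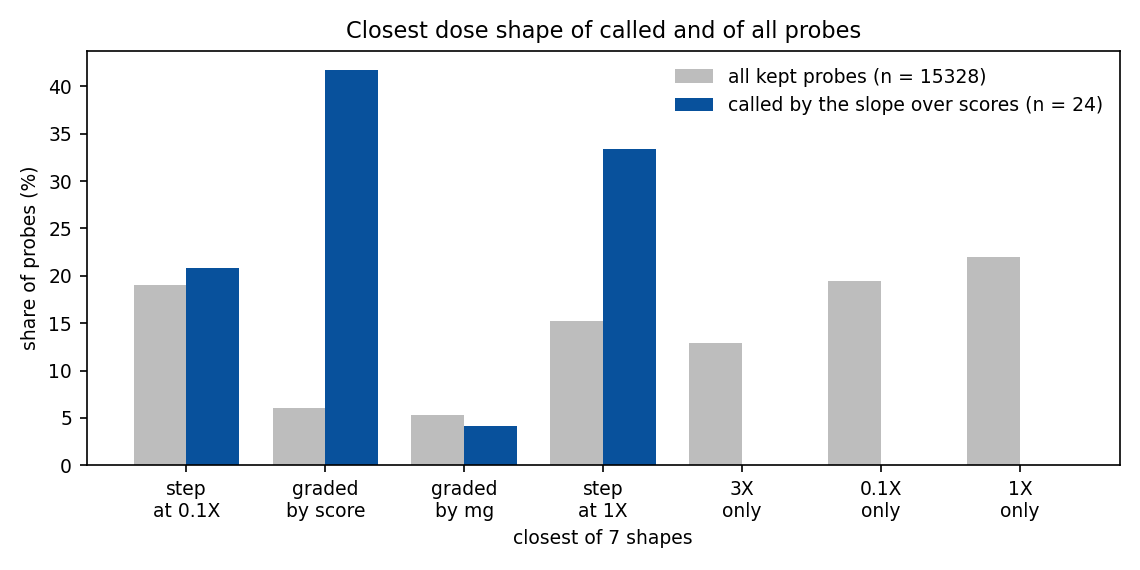
Share of probes (%) closest to each of 7 dose shapes, for all 15328 kept probes (grey) and for the 24 with a slope over the dose order (blue). The even grade holds 10 of the 24 and the step at 1X holds 8, while no probe with a slope is closest to a change at a single dose.

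Some of the sequence from which these genes are transcribed is given for a gene of each shape that results turn on: Moxd1 (even grade), Azgp1 (step at 0.1X), Prdx4 (step at 1X) and Acot1 (0.1X only). Each runs from 250 bases before to 50 after the transcription start, from RefSeq (GRCm38.p6), 5′ to 3′ along the gene's strand, and capitals mark CCAAT, read as ATTGG on the other strand, the box shared by many promoters, and CACGTG, the E-box bound by clock and other helix-loop-helix factors. 
Moxd1, chr10:24223267-24223566, plus strand: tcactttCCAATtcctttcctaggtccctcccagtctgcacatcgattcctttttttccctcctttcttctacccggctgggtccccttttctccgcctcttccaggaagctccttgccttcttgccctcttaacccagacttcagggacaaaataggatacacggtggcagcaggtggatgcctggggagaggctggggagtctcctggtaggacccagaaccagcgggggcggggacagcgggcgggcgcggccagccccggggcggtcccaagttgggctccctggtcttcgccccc
Azgp1, chr5:137981271-137981570, plus strand: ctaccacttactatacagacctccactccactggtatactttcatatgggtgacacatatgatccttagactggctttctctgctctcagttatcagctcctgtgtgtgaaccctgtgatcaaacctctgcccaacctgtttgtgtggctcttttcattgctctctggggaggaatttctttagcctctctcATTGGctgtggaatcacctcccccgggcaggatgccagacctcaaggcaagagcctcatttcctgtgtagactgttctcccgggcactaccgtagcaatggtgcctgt
Prdx4, chrX:155338411-155338710, minus strand: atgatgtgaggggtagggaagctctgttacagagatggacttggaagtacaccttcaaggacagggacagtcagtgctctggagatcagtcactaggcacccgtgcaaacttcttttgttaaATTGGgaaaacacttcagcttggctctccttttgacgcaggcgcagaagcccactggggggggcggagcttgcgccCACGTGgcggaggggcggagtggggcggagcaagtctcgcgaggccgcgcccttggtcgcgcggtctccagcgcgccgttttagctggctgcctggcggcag
Acot1, chr12:84009252-84009551, plus strand: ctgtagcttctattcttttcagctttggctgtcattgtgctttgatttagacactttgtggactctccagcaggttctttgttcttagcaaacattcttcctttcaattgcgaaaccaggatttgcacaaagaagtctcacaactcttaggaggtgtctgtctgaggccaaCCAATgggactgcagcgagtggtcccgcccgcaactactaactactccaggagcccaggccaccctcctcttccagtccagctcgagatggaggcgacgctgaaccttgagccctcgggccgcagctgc

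Of 31 named genes called by any dose test, 23 had such an entry, some with several starts, 31 entries in all. On both strands, CCAAT stood in 35.5% of these entries and in 37.4% of all 32851 promoters, and CACGTG in 16.1% and 7.15%. AGGTCA, the core site of PPAR and other nuclear receptors, stood in 12.9% and 16.3%, and AGGTCANAGGTCA, the PPAR repeat, in 0% and 0.0396%. TGACNNNGC, the core of the antioxidant response element, stood in 12.9% and 12.4%, and TTATGTAA, the site of the PAR-bZIP clock output factors, in 6.45% and 0.938%. In these 31 entries such shares rest on between 0 and 11 matches, and a match is not a site in use.

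Among genes closest to the even grade, the rises were led by Moxd1, Reep6 and Slamf9. Moxd1, a copper-dependent monooxygenase related to dopamine beta-hydroxylase, read 4.35, 4.24, 4.38 and 4.44 log2 units in water, 4.43, 4.82, 4.94 and 4.38 at 0.1X, 5.26, 4.97, 4.94 and 4.75 at 1X, and 5.30, 5.31, 5.36 and 5.49 at 3X. It was detected on 0 of 4 arrays in water, 2 at 0.1X and all 4 at 1X and at 3X, and the water arrays did not overlap either higher dose. Because water gives only a bound, Moxd1 was at least 1.25-fold higher at 1X and at least 1.63-fold higher at 3X, and its fitted slope was 0.34 per step (SE 0.04, adjusted p = 0.000653). Reep6, which shapes membranes of the endoplasmic reticulum, read 7.11, 6.49, 6.81 and 6.14 in water, 7.11, 7.38, 8.62 and 8.19 at 0.1X, 8.20, 8.91, 9.28 and 7.91 at 1X, and 8.84, 8.42, 8.64 and 8.76 at 3X. The 0.1X arrays spanned the whole gap, with the lowest at the level of the highest water array and the highest at the level of 3X, and the 3X arrays were the closest together (SD 0.18 against 0.70 at 0.1X). Reep6 differed from water by 1.19 at 0.1X, 1.94 at 1X and 2.03 at 3X (SE 0.32 each), and these last 2 differences passed on their own (adjusted p = 0.0390 and 0.00993). Most of its rise was thus reached by 1X. The step at 0.1X fitted Reep6 nearly as well as the even grade, with 63.9% against 67.4% of the variance over the 16 arrays.

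Slamf9, a receptor of the SLAM family on immune cells, read 4.86, 4.75, 5.06 and 4.85 in water, 5.08, 5.46, 5.22 and 5.52 at 0.1X, 5.76, 6.96, 5.63 and 5.65 at 1X, and 5.99, 6.54, 6.25 and 6.29 at 3X. Every extract array lay above every water array at all 3 doses, and 1X replicate 2 was the highest array of the series for it. Of 11 macrophage markers kept, 3 had slopes above 0 and 8 below, with a median of -0.04 that turned to 0.04 under scaling on all probes. Ptges3l, a relative of the p23 co-chaperone, read 4.90 to 5.37 in water, 5.10 to 5.51 at 0.1X, 5.61 to 6.02 at 1X and 5.75 to 6.01 at 3X. Its closest template was the even grade, although 1X differed from 0.1X by 0.47 and 3X from 1X by 0.07, and a second Ptges3l probe, with group means from 4.92 to 5.12, had a slope of 0.00.

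Ndrg2, of the N-myc downstream-regulated family, had group means that differed from water by 0.54, 0.93 and 1.09 at the 3 doses, and Fbp2, the muscle form of fructose bisphosphatase, by 0.39, 0.55 and 0.86. Both were higher than every water array at all 3 doses. Arhgef25, a guanine nucleotide exchange factor, was not detected in water and was detected on 2 arrays at 0.1X and on all 4 at each higher dose, at least 1.43-fold higher at 1X and at least 1.71-fold higher at 3X. Igdcc4, an immunoglobulin-type receptor of the DCC subclass, was the lone probe closest to a grade by mg: it differed from water by 0.16, 0.43 and 0.82, with 3X arrays at 5.57, 5.67, 5.49 and 5.00.

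Lpl, the lipase that frees fatty acids from circulating triglycerides, led the even falls. It read 8.23, 8.83, 8.84 and 8.40 in water, 8.56, 8.54, 8.23 and 7.75 at 0.1X, 8.48, 7.68, 7.84 and 7.58 at 1X, and 7.70, 7.20, 7.35 and 7.74 at 3X. Neighbouring doses overlapped throughout, and only 3X lay wholly below water, by 1.08 (SE 0.19, adjusted p = 0.0361). Lpl is made by adipocytes, and the means of the 10 of 16 adipocyte markers that were kept, Lpl among them, ran from 5.35 to 6.60 in water, 5.53 to 5.93 at 0.1X, 5.23 to 6.38 at 1X and 5.26 to 5.73 at 3X. Adiponectin (Adipoq), their defining hormone, differed from water by -0.40, -0.20 and -0.50. Of the 10 markers, 8 had slopes below 0 and 2 above (median -0.08). The medians of the 10 against water were -0.07, -0.16 and -0.25. The Lpl slope was -0.36 per step (SE 0.06, adjusted p = 0.0143). With the mean of the 9 adipocyte markers other than Lpl and that of the B cell list as covariates it was -0.25 (adjusted p = 0.0298), and the Lpl calls for the mg slope and for the contrast of 1X and 3X described below were lost (adjusted p = 0.0727 and 0.0643). In such bulk tissue, fewer cells of a type and less RNA per cell cannot be told apart. Sh3bgrl3, a small protein with a thioredoxin fold, differed from water by -0.33, -0.76 and -0.85, and Iyd, the deiodinase that recycles iodide, by -0.30, -0.55 and -0.67 on its brighter probe. Its other probe with a slope was closest to the step at 1X, with 59.2% of the variance against 57.6% for the even grade. Iyd is thus counted under both shapes.

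A step at 1X was the second common shape, whose template holds 0.1X at the water level and moves 1X and 3X together. Lamb3, a laminin chain of basement membranes, read 6.05, 5.67, 5.66 and 5.72 in water, 5.79, 5.87, 5.75 and 5.82 at 0.1X, 6.46, 6.50, 6.43 and 6.21 at 1X, and 6.76, 6.94, 6.46 and 6.42 at 3X. The 8 arrays of the higher doses lay above the 8 others with no overlap, and the 0.1X arrays lay inside the range of water. Other shapes fitted Lamb3 nearly as well, with 82.1% of the variance for the step at 1X, 81.3% for the grade by mg and 78.6% for the even grade. With 1 array left out, Lamb3 kept its shape in 10 of 16 fits. In AFFB, at nearly the anthocyanin dose of 1X, Lamb3 read 4.82, 5.74, 5.87 and 5.44, a difference from 1X of -0.93 that did not pass (adjusted p = 0.0894), where 1 probe of all tested did (0.00652%). Cd164l2 differed from water by 0.00 at 0.1X, 0.76 at 1X and 0.61 at 3X.

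Gcnt1, the enzyme that starts core 2 branches on O-glycans, read 7.09, 7.18, 6.95 and 7.03 in water, 6.57, 6.87, 6.54 and 5.95 at 0.1X, 5.36, 5.48, 5.40 and 6.34 at 1X, and 5.60, 6.07, 5.78 and 5.86 at 3X. All 12 extract arrays were below all 4 water arrays, so that 0.1X sat part of the way down. The even grade fitted Gcnt1 nearly as well as the step at 1X, with 65.9% against 68.5% of the variance. With 1 array left out, Gcnt1 kept its shape in 11 of 16 fits. A second, dimmer Gcnt1 probe differed from water by -0.59, -1.08 and -0.76, and its slope did not pass (adjusted p = 0.409). Kit, the stem cell factor receptor, read 5.85, 5.74, 6.12 and 6.09 in water, 5.79, 6.14, 6.29 and 5.30 at 0.1X, 5.56, 4.42, 5.21 and 5.25 at 1X, and 5.15, 5.10, 5.01 and 4.50 at 3X. Kit marks mast cells among others, and of 10 mast cell markers only Kit, Cpa3 and Fcer1a were kept, without the proteases Cma1 and Mcpt4. Their mean ran from 4.81 to 5.29 in water, 5.00 to 5.13 at 0.1X, 4.63 to 4.80 at 1X and 4.58 to 4.69 at 3X, with Kit in it. Cpa3 alone had a slope of -0.10 and Fcer1a of 0.01 (adjusted p = 0.776 and 0.989), and the part of mast cell number in the Kit values was not tested. Apol7a, of the apolipoprotein L family, differed from water by -0.02, -0.73 and -0.97, and no dose was wholly apart from water for it, since water replicate 4 read 5.48 against 6.22 to 6.43 on the other 3.

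The step at 1X was then tested as a contrast of its own, 1X and 3X against water and 0.1X, chosen after the shapes had been seen. Its adjusted p-values do not account for that choice. It called 25 probes, 0.163%, 16 higher (0.104%) and 9 lower (0.0587%). Genes that had no call for a slope entered here. Prdx4, the peroxiredoxin of the endoplasmic reticulum, read 12.41, 12.54, 12.41 and 12.58 in water, 12.49, 12.59, 12.64 and 12.49 at 0.1X, 12.96, 12.92, 12.94 and 12.80 at 1X, and 12.83, 13.06, 12.99 and 12.71 at 3X. The 8 arrays at the higher doses all lay above the 8 others, by 0.38 on average (SE 0.08, adjusted p = 0.0359). Cadps2, a priming factor of granule exocytosis, differed from water by 0.31, 0.81 and 0.63 (contrast 0.57, adjusted p = 0.0394), and Tle6, a Groucho family co-repressor, by 0.03, 0.73 and 0.58 (0.64, 0.0436). Cox6a2, a muscle subunit of cytochrome oxidase, was detected on 1, 2, 4 and 4 arrays of water, 0.1X, 1X and 3X, and the contrast was 0.74 (adjusted p = 0.0359).

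Ahcy, which hydrolyses S-adenosylhomocysteine, fell by 0.66 in this contrast (SE 0.12, adjusted p = 0.0235), with 8.95 to 9.54 in water and 0.1X together and 8.26 to 8.85 at the 2 higher doses. A brighter Ahcy probe fell short of the threshold at -0.35 (adjusted p = 0.173). Arhgap24, a Rac inactivator, differed from water by 0.21, -0.56 and -0.59 (contrast -0.68, adjusted p = 0.0235), and Gde1, a glycerophosphodiesterase, by 0.06, -0.48 and -0.69 (contrast -0.62, 0.0368). Leaving out single arrays kept the call in all 24 fits for Lamb3, in 22 for Cd164l2, 20 for Arhgap24, 18 for Ahcy, 12 each for Prdx4 and Gde1, and 6 for Tle6. With the adipocyte and B cell means as covariates, 1 of the 21 named probes of this contrast, Moxd1, passed, and the adjusted p of the 21 ran from 0.00815 to 0.169 (Lamb3 0.0572). When the 5 arrays of high clock score were left out, 10 of the 21 passed (Lamb3 0.0522, Cd164l2 0.0696), and with no detection filter 6 did.

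Other genes had moved most of the way by the lowest dose. The mean of the 3 doses against water called 7 probes, 0.0457%, 4 higher, 0.0261% (Reep6, Azgp1, Slc7a3 and Moxd1), and 3 lower, 0.0196% (Cobl, Gper1 and Rprm). Reep6 and Moxd1 are the graded genes above, and the other 5 were closest to the step at 0.1X. Slc7a3, a transporter of arginine and lysine, read 8.07, 7.77, 8.10 and 7.48 in water, 8.87, 8.61, 8.74 and 8.61 at 0.1X, 8.82, 8.68, 8.81 and 8.55 at 1X, and 8.73, 9.21, 8.85 and 8.59 at 3X. All 12 extract arrays lay above all 4 water arrays, the means at 0.1X and 1X differed by 0.01, and the extract differed from water by 0.90 (SE 0.15, adjusted p = 0.0154). A second Slc7a3 probe, detected on 5 of the 16 arrays, did not follow (-0.16). Azgp1, a secreted zinc-binding glycoprotein tied to lipid mobilisation, read 7.80, 8.38, 8.32 and 8.13 in water, 8.78, 8.74, 8.92 and 8.87 at 0.1X, 9.01, 9.43, 9.15 and 9.09 at 1X, and 8.97, 8.98, 9.24 and 9.23 at 3X. The groups of extract and water did not overlap, the differences from water were 0.67, 1.01 and 0.95 at the 3 doses, and their mean was 0.88 (SE 0.15, adjusted p = 0.0154). On a second Azgp1 probe every extract array but 1X replicate 2 lay above water, and that array read 4.62 where its group read 6.08 to 6.71. 1X replicate 2 stood apart from the other 15 on the first principal component, at 56.1 against at most 19.0.

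Cobl, which nucleates actin filaments, read 5.65, 5.58, 5.58 and 5.75 in water, 4.78, 5.04, 5.21 and 4.43 at 0.1X, 4.45, 4.77, 4.53 and 4.72 at 1X, and 4.52, 4.47, 4.95 and 4.63 at 3X. It fell by 0.93 over the 3 doses (SE 0.16, adjusted p = 0.0154), from 4 water arrays with detection to 3, 2 and 1 at the rising doses. Gper1, a membrane oestrogen receptor, read 5.42 to 5.90 in water and 4.34 to 5.34 over all 12 extract arrays, and it fell by 0.91 (SE 0.16, adjusted p = 0.0156) without a call for a slope (adjusted p = 0.0625). Rprm, a mediator of cell-cycle arrest, fell by 1.22 (SE 0.22, adjusted p = 0.0262), from 5.46, 6.21, 6.71 and 6.06 in water to 4.82 to 5.53 at 0.1X. Oxct1, the enzyme with which tissues use ketone bodies, differed from water by -0.49, -0.79 and -0.75 and was called by the slope, not by this contrast (adjusted p = 0.0640).

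**Figure D3:**
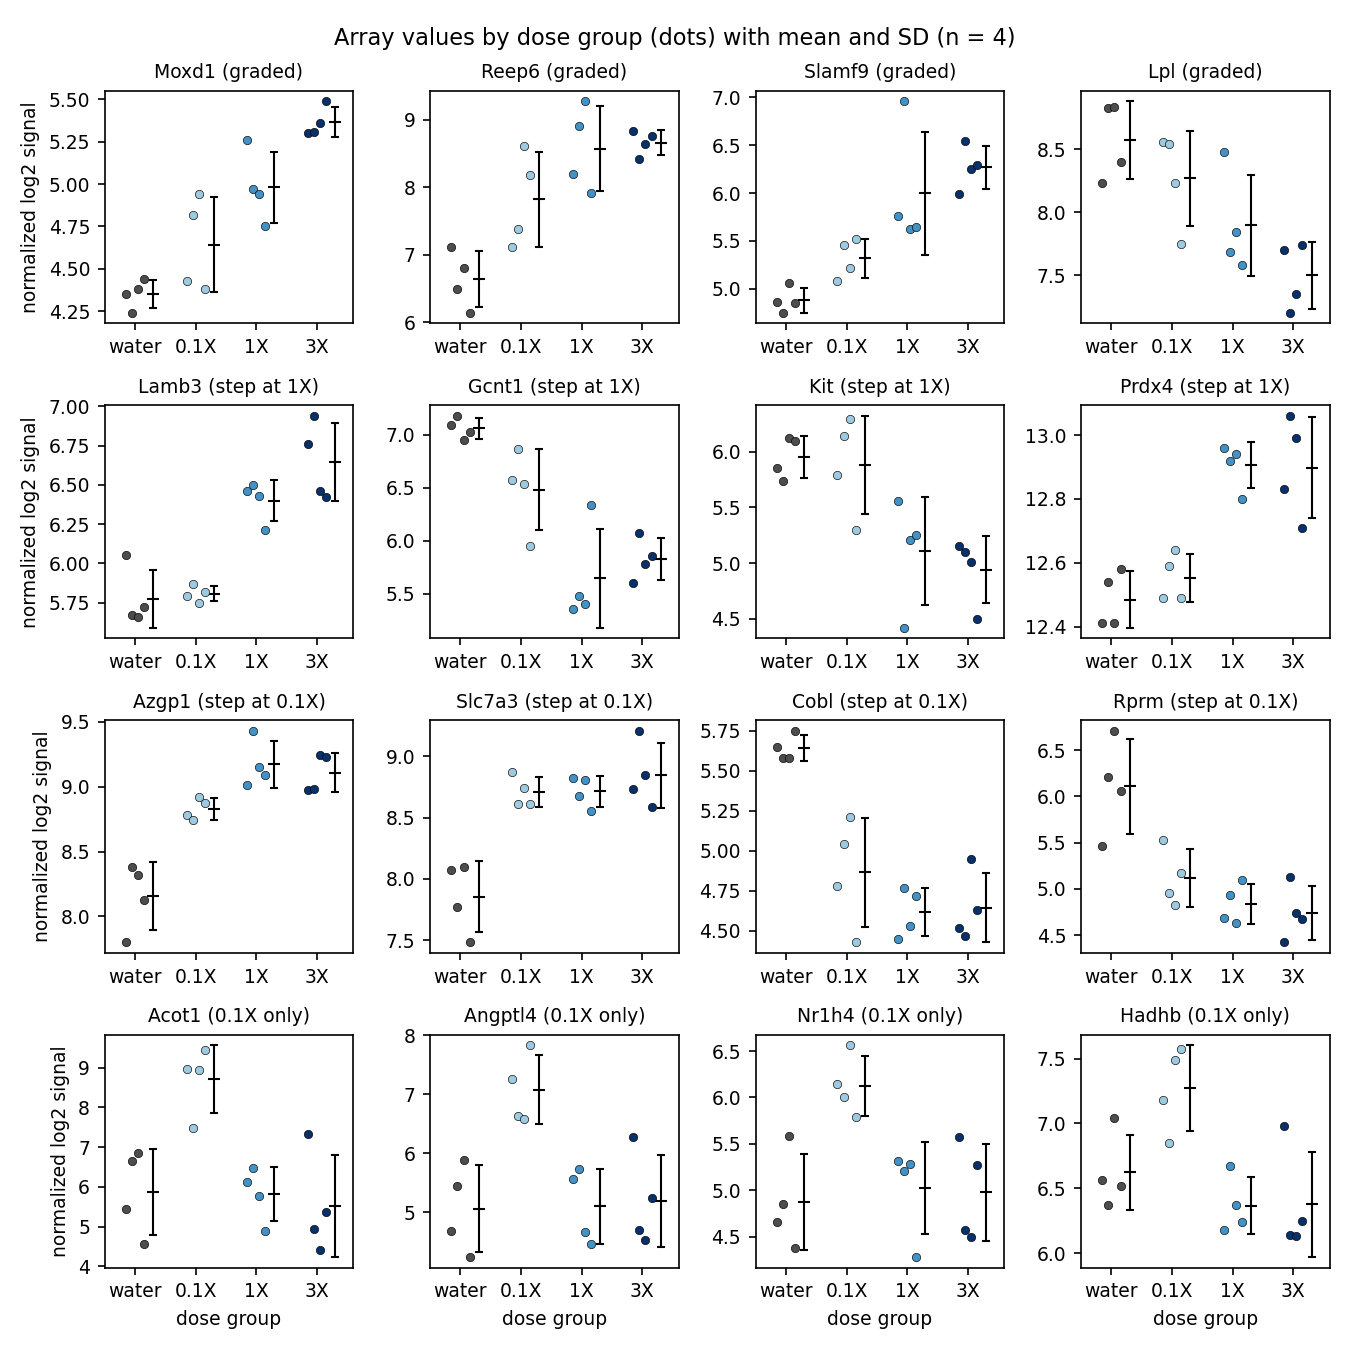
Normalized log2 signal on each array (dots) by dose group for 4 genes of each shape, with mean and SD of 4 arrays beside them. Rows from the top show genes graded with dose, genes that change at 1X, genes already changed at 0.1X, and genes high at 0.1X only, where 1X and 3X lie with water. Nr1h4 and Hadhb in the bottom row did not pass a test.

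Further kept probes of the genes above had slopes of 0.09 for Ndrg2, 0.06 for Igdcc4, -0.03 for Cobl, -0.30 for Oxct1, 0.02 for Arhgap24, and -0.22 and -0.32 for Gde1, and none of them passed.

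Within the dose series, the lowest dose also had a shape of its own, in genes of fatty acid handling. They were high at 0.1X and at the water level at 1X and 3X, and AFFB values are given below. The contrast of 0.1X against the other 3 groups called 2 probes, 0.0130%, both higher: Acot1, an acyl-CoA thioesterase, and Angptl4, the secreted inhibitor of lipoprotein lipase, both well-known PPAR targets. Acot1 read 5.44, 6.64, 6.85 and 4.56 in water, 8.97, 7.47, 8.94 and 9.43 at 0.1X, 6.12, 6.47, 5.78 and 4.90 at 1X, and 7.34, 4.93, 4.40 and 5.38 at 3X. The 4 arrays at 0.1X lay above the other 12, by 2.97 on average (SE 0.50, adjusted p = 0.0295). A second Acot1 probe was detected on all 4 arrays at 0.1X, on none in water or at 1X and on 1 at 3X, and did not pass (1.39, adjusted p = 0.0516). Its 4 arrays at 0.1X meet the detection filter alone, so the group where it was high sufficed to keep it. Acot2 is nearly identical to Acot1, which of them the Acot1 probes read is uncertain, and the Acot2 probe differed from water by 0.11, 0.10 and 0.07.

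Angptl4 read 4.68, 5.44, 5.89 and 4.24 in water, 7.26, 6.64, 6.59 and 7.83 at 0.1X, 5.57, 5.73, 4.66 and 4.47 at 1X, and 6.27, 4.71, 4.53 and 5.24 at 3X. Again the 0.1X arrays lay above the other 12, by 1.96 (SE 0.32, adjusted p = 0.0295). The array closest to them was 3X replicate 1 for Acot1 and Angptl4 alike, and without it the adjusted p of both was 0.00335. Hadhb, of the trifunctional protein that oxidises fatty acids in mitochondria, was 0.82 higher at 0.1X than in the other groups and Nr1h4, the bile acid receptor FXR, 1.17 higher, and neither passed (adjusted p = 0.152 and 0.244). For AFFB the array values were 9.50, 6.93, 7.20 and 8.10 for Acot1 and 6.78, 5.41, 5.52 and 6.46 for Angptl4, and neither difference of AFFB from 1X passed. Replicates 1 and 4 lay within or above the 0.1X range for Acot1 and replicates 2 and 3 between 0.1X and water, while for Angptl4 replicate 1 lay within the 0.1X range and replicates 2 and 3 within that of water.

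The list of fatty acid oxidation genes and targets of PPAR held 18 kept genes, of which 13 were higher at 0.1X than in the other 3 groups. Of these, 10 had an unadjusted p under 0.05, and only Acot1 and Angptl4 passed. In either direction 715 of all probes (4.66%) had an unadjusted p under 0.05, 333 of them upward. The median of the list in this contrast was 0.34, against -0.01 over all kept probes, of which 47.1% were higher. The list's medians against water were 0.37 at 0.1X, -0.03 at 1X and 0.07 at 3X. Array means of the list were 5.39 to 5.88 in water, 6.06 to 6.36 at 0.1X, 5.52 to 5.93 at 1X and 5.46 to 6.17 at 3X. They include Acot1 and Angptl4, the probes this contrast called, and were not computed without them. In AFFB the list means were 6.31, 5.87, 5.81 and 6.32. Replicates 1 and 4 of AFFB lay within the 0.1X range, and replicates 2 and 3 within that of water. Shmt2, the mitochondrial serine hydroxymethyltransferase and no member of the list, read 5.96 to 6.59 in water and 6.90 to 7.48 at 0.1X and stayed 0.50 and 0.46 above water at 1X and 3X, with no call.

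The calls at 0.1X rested on single arrays, and Acot1 and Angptl4 each passed in 15 of 24 fits with 1 array left out. Without single arrays, 0 probes passed when 0.1X replicate 1, 3 or 4, 1X replicate 3 or 4, 3X replicate 2, 3 or 4 or water replicate 1 was left out, and 4 or 5 passed without AFFB replicate 3 or 3X replicate 1. The 4 arrays of high clock-gene score (water replicate 4, 1X replicate 4, and 3X replicates 2 and 3, at 3.82 or above against at most 0.58 on the other 12) include none at 0.1X, and with the score as a covariate the Acot1 difference was 2.42 (adjusted p = 0.0583) and the Angptl4 difference 1.73 (0.0816).

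**Figure D4:**
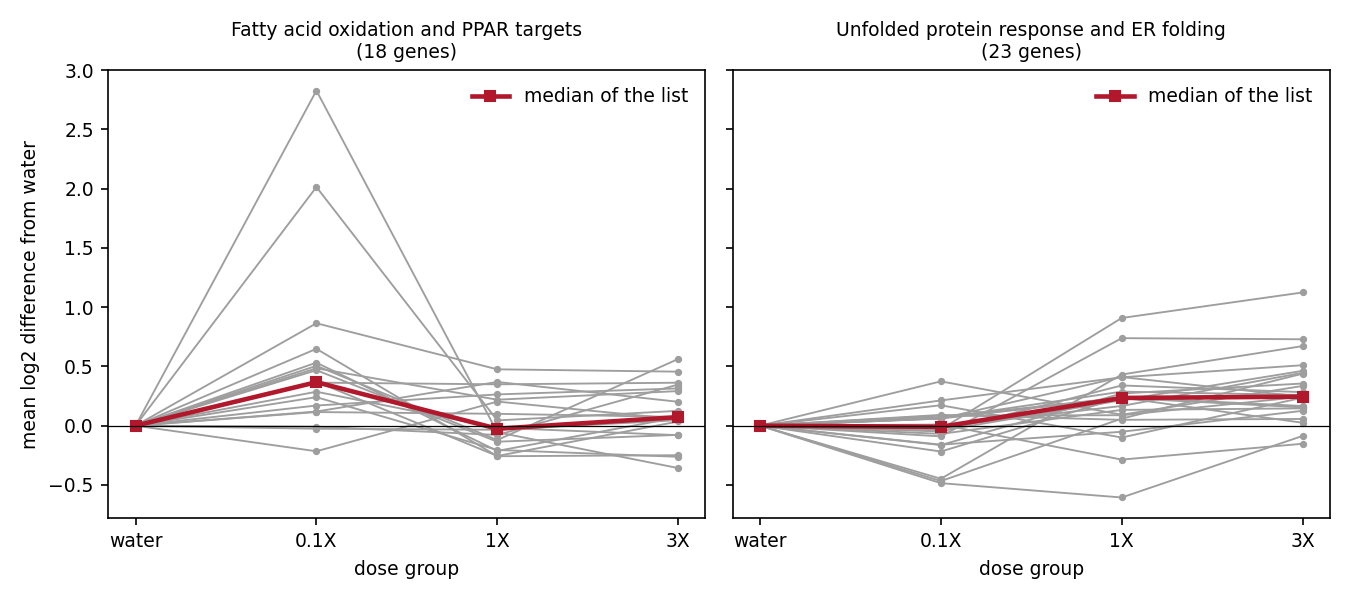
Mean log2 difference from water at each dose for the kept genes of 2 lists (grey lines) with the median of the list (red squares). Fatty acid oxidation and PPAR targets peak at 0.1X, with medians of 0.37, -0.03 and 0.07 at the 3 doses, while genes of the unfolded protein response and folding lie at -0.01, 0.23 and 0.25.

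Genes of folding in the endoplasmic reticulum had another layout, with medians near water at 0.1X and above it at both higher doses. Of 23 kept genes on the list, 21 had a slope above 0, against 53.1% of all kept probes, with a median of 0.10 per step against 0.00, and the list's medians against water were -0.01, 0.23 and 0.25. None passed, and 6 had an unadjusted p under 0.05, all upward, where 6.88% of all probes had one in either direction. Array means of the list were 8.60 to 9.16 in water, 8.55 to 8.97 at 0.1X, 8.53 to 9.36 at 1X and 8.82 to 9.47 at 3X, which overlap, and 1X replicate 2 was the lowest of the 16. Derl3, which helps to remove misfolded proteins, read 7.64, 8.04, 7.52 and 7.58 in water, 7.05, 7.53, 8.33 and 7.52 at 0.1X, 8.73, 8.33, 8.80 and 7.88 at 1X, and 8.37, 8.25, 8.10 and 8.99 at 3X. Its slope was 0.30 (adjusted p = 0.196). Trib3, a pseudokinase induced by stress, had slope 0.43 (adjusted p = 0.317), and its highest arrays were 1X replicate 2 and 3X replicate 2, at 8.16 and 8.49 against at most 7.27 on the other 14. P4hb, the protein disulfide isomerase that Prdx4 oxidises, differed from water by -0.05, 0.34 and 0.28, with no call.

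Slopes of further lists were mixed. All 8 kept genes of acinar secretion had slopes above 0 (median 0.05), of which Cadps2 alone passed a dose test. Of 13 genes of islet identity and granules 12 had slopes below 0 (median -0.06, turning to 0.01 when the 5 arrays of high clock score were left out), with none at an unadjusted p under 0.05 and with water replicate 4 at a list mean of 6.51. Heat shock genes were below 0 for 10 of 11 (median -0.09, turning to 0.05 under scaling on all probes), among them Hspb1 at -0.19, and ribosomal protein genes for 29 of 35 (median -0.06, turning to 0.02 under scaling on all probes). Erythroid genes were above 0 for 4 of 6 (median 0.24), with array means of 7.24 to 7.82 in water and 7.54 to 8.75 at 3X. The list's medians against water were 0.39, 0.29 and 0.86, no gene passed, and the array means at 1X ran from 6.89 to 8.57. The 6 kept regenerating proteins, secreted proteins of the Reg family that acinar cells make under injury, had medians of 0.94, 0.90 and 0.36 against water, with all 6 above 0 at 0.1X. None passed, and their array means overlapped, at 8.91 to 9.998 in water, 8.87 to 11.1 at 0.1X, 9.89 to 11.9 at 1X and 8.50 to 11.9 at 3X. Digestive enzymes were at a median slope of -0.01.

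A contrast of 3X against the other 3 groups, added after the shapes had been seen, called 1 probe, 0.00652%, higher, with 598 (3.9%) at an unadjusted p under 0.05. It was Moxd1 (0.71, SE 0.11, adjusted p = 0.0207), whose closest shape was the even grade, so no called probe was closest to a change at 3X only. Among probes of that shape the smallest p in this contrast was that of Mcm6 (0.85, SE 0.18, adjusted p = 0.369), a helicase subunit that licenses DNA replication, with 4.30, 4.53, 4.66 and 4.41 in water, 4.79, 4.58, 4.64 and 4.85 at 0.1X, 4.78, 4.33, 4.62 and 4.83 at 1X, and 5.01, 5.99, 6.14 and 4.69 at 3X. The rise at 3X sat on replicates 2 and 3, on this probe and on both further Mcm6 probes, and those are the 3X arrays with a high clock score, whose part in it was not tested. Of 13 genes of replication and cell cycle 10 had slopes above 0, with 4 at an unadjusted p under 0.05 and none called.

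Setting dose by mg per kg per day in place of the dose order called 7 probes, 0.0457%: Moxd1, Lamb3, Slamf9, Reep6, Arhgef25 and Ptges3l higher (0.0391%) and Lpl lower (0.00652%), with 6.7% of all probes at an unadjusted p under 0.05. Moxd1 rose by 0.048 log2 units per mg (adjusted p = 0.00106), Reep6 by 0.086 (0.0210) and Slamf9 by 0.067 (0.0210), and Lpl fell by 0.052 (0.0217). For 21 of the 24 probes with a slope over the dose order the even grade left less residual than the grade by mg. That slope chose these 24 probes and favours the even grade, so the count cannot decide between dose order and mg. Over all kept probes, 6.03% were closest to the even grade and 5.30% to the grade by mg. The mg scale places 0.1X next to water, and Slc7a3, Azgp1, Cobl, Rprm and Oxct1, which were closest to a step at 0.1X, were among those with no call on it.

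Tests free of a set shape called fewer probes. The F test of any difference among the 4 groups called Moxd1 and Reep6 (adjusted p = 0.0118 and 0.0233; 2 probes, 0.0130%), and the F test of departure from a straight line called 0 probes in limma, while 459 had an unadjusted p under 0.05, with Angptl4 and Acot1 at the head (adjusted p = 0.311 and 0.322). The slope among the 3 extract doses, without water, called 0 probes in limma as well. An unadjusted p under 0.05 was found for 824, and the lowest adjusted p was 0.184, for Moxd1 at 0.36 per step and Acot1 at -1.59. Thus the shapes named above are the closest of 7, and none was separated by a test from a straight line. When single arrays were left out, 21 of the 36 probes called by any dose test kept their shape in all 16 fits. Of the 24 with a slope over the dose order, 11 did. The 36 include probes called by the contrasts for a step or for 0.1X, each of which favours its own shape. Of the 36, 34 stayed within the 5 shapes that move one way.

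Against water alone, 0.1X called 0 probes, 1X called 1 (0.00652%, Reep6) and 3X called 7 (0.0457%), 6 higher (0.0391%) and Lpl lower (0.00652%). Between neighbouring doses no probe passed. At an unadjusted p under 0.05 limma listed 579 probes (3.78%) for 0.1X against water, 795 (5.19%) for 1X against 0.1X and 321 (2.09%) for 3X against 1X, with smallest adjusted p of 0.342, 0.333 and 1. The shares were 1.90%, 9.11% and 2.16% under median scaling, and 3.18%, 6.75% and 1.40% without the 5 arrays of high clock score. Of the 24 probes with a slope, 8 were wholly apart from water at 0.1X, 22 at 1X and 23 at 3X, against 2.99%, 3.89% and 4.68% of all probes, and since the slope chose these 24 the counts describe them only. Azgp1, Cobl, Fbp2, Gcnt1, Ndrg2, Oxct1, Slamf9 and Slc7a3 were apart at all 3 doses. The share of all probes apart at all 3 doses was not counted, and it can be at most 2.99%.

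The count of probes with a slope rested on a few arrays. It was 2 without water replicate 2, 5 without water replicate 3 or 4, 8 without 3X replicate 3 or 4, 11 without water replicate 1 or 3X replicate 1, 13 without 3X replicate 2, and between 16 and 28 without any other array. Moxd1 and Reep6 passed in all 24 of these fits, Slamf9 in 23 and Lamb3, Lpl and Ptges3l in 21, while the 2 Iyd probes passed in 5 and in 3. Apol7a and Oxct1 passed in 6, Cd164l2 in 7, Igdcc4 in 9, and Kit and Sh3bgrl3 in 10. The call for the Lpl slope was also lost under median scaling on all or on kept probes, with the 16 arrays only, and without the 5 arrays of high clock score. When the 5 arrays of high clock score (1 of them given sitagliptin) were left out, 4 probes passed, with Moxd1 at a slope of 0.36 (adjusted p = 0.0326) and Reep6 at 0.70 (0.0510). The mg slope gave 1 probe without water replicate 2, 0.1X replicate 1 or 3X replicate 2, 2 without 3X replicate 3, 3 without 0.1X replicate 2 or 3X replicate 1, and 11 without 1X replicate 2. The mean of the 3 doses against water gave 0 without water replicate 2 or 4 and 3 without water replicate 1 or 3. The F test of any difference gave 0 without water replicate 2 or 3 or 3X replicate 3 or 4, 1 without water replicate 4, 4 or 5 without 1X replicate 1 or 4, 3X replicate 1 or sitagliptin replicate 3, and 8 without AFFB replicate 1.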

How the data were processed

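Biotin-labelled pancreas RNA was read on single-colour Illumina BeadChips, as the labels state. For 45281 probes on each of 24 arrays the deposited table holds a mean bead intensity, linear and not normalized per the file headers, and a detection p-value. A further deposited table held log2 values, which differed from those computed here by at most 0.104, and R 3.1.2 and limma 3.22.1 are named in the submitters' processing notes.

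Signals were background-corrected from the detection p-values and quantile normalized with neqc (offset 16) of limma 3.58.1 in R 4.3.3 on the log2 scale. The filter kept probes whose detection p was below 0.05 on 4 or more of the 24 arrays. The median signal on the 16 arrays was 83.0 to 98.7 and 10888 to 14060 probes were detected, and the number of arrays limits the precision. One symbol was given to 13086 kept probes by the platform annotation, and probes with several (8) or none (2234) were tested and not named. Where no array of a group detected a probe, its level there is a bound: the brighter group's mean was set against the higher of the lowest detected signal and the probe's own value.

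Titles gave the groups. One fit of 6 group means without covariates took all 24 arrays, moderated with eBayes, two-sided, with Benjamini-Hochberg adjustment over all kept probes. Contrasts were the slopes over the dose order and over mg per kg per day, the 3 doses against water, 0.1X against the rest, 3X against the rest, 1X and 3X against the rest, neighbouring doses, and F tests. Contrasts share arrays, so their calls are not independent of each other. Templates were fitted by least squares to the 16 arrays with a free intercept and size. Each list gene entered by its brightest kept probe.

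The groups, gene lists and tests were chosen with earlier results of these data known. Named genes are all called probes with 1 symbol, the 10 smallest p where fewer were called, the first 3 of each shape and list, and a fixed panel. Adipoq, Cpa3 and Fcer1a were added as markers and Acot2 as a paralog. Replicate numbers are shared by the groups, but arrays of the same number did not deviate together (correlations of -0.45 to 0.35, median 0.02), so they were not used as pairs. No arrays were duplicates. On simulated data for 15328 probes, of which a seeded subset was changed, changes of 0.5, 1 and 2 log2 units over the series were recovered by the slope in 24.5%, 89.9% and 98.2%, and the even grade was named as the shape in 32.8%, 71.9% and 93.3%. A step at 0.1X of these sizes was recovered in 36.4%, 95.8% and 99.7% and named in 78.2%, 97.9% and 100%, and a change at 0.1X only was recovered in 40.0%, 93.7% and 100% and named in 82.7%, 98.8% and 100%, so the even grade was named least often. A simulation held 6.4 to 9 false calls on average. Its noise was drawn for each probe on its own, with no effect shared across an array, and no step at 1X was simulated. These false calls therefore do not estimate how many of the calls reported here are false. Alternatives changed the background, scaling, filter, variance model, arrays, dose scores or covariates.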

Additional observations from a re-analysis of the deposited data

Results flagged for a closer look

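In 176 groups of 4 arrays (36 called probes and 8 array summaries in 4 dose groups each), the gap from the outermost array to its nearest neighbour was divided by the range of the group, and 5 ratios were above Dixon's 95% critical value for 4 samples. Chance flags about 1 in 20 groups.

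Slamf9 on 1X replicate 2 (6.96) stood above its group with a ratio of 0.9023, and Gcnt1 on 1X replicate 4 (6.34) with 0.8776. Lamb3 on water replicate 1 (6.05) gave 0.8462. The clock-gene score of water replicate 4 (3.82) gave 0.8714. The mean of the islet identity and granule genes on water replicate 4 (6.51) gave 0.9637, and 12 of those 13 genes had slopes below 0.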

How the results depend on the processing

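No called value changed its direction under the alternatives run. Of 811 values of single called probes under alternatives other than leaving out 1 array, 568 stayed past the threshold, and of 1416 with 1 array left out, 973 did. The medians of 24 of 38 lists, which carry no call, turned sign under at least 1 alternative. Scaling to the median of all probes put the median of all slopes at 0.0597 per step and that of the 3X differences at 0.164, against 0.00435 and 0.00998, and it turned 14 lists. The cause of the moves below was not tested, except where stated.

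The slope over the dose order (24 probes) gave 85 (83 higher) when scaled to the median of all probes, 10 with no detection filter, which tests more probes, 12 with the 16 arrays only, 52 with the clock score as covariate, 12 with the adipocyte and B cell means as covariates, 4 without the 5 arrays of high clock score and 4 with scores of 0, 0.1, 1 and 3 as in the titles. The other alternatives gave 18 to 25. The mg slope (7) gave 14 without background correction, 13 with an offset of 50, 96 under median scaling, 12 with detection on all 16 arrays, 1 with no filter, 26 with the clock score, 2 with the adipocyte and B cell means and 1 without the high clock arrays.

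The F test of any difference (2) gave 7 without background correction, 14 under median scaling, 4 with scaling on kept probes, 9 with the 16 arrays only, 6 with a trended robust eBayes, 19 with the clock score and 5 with the erythroid mean. It gave 1 with the offset of 50, detection on all 16 arrays, no filter or the adipocyte and B cell means, and 0 without the high clock arrays. Departure from a line (0) gave 1 with the 16 arrays only. The 3 doses against water (7) gave 11 with scaling on kept probes, 3 with detection on all 16 arrays, 16 with the clock score and 2 without the high clock arrays. The contrast of 3X with the rest (1) gave 0 without background correction, with detection on all 16 arrays, the 16 arrays only, the erythroid mean or without the high clock arrays. The contrast of 0.1X (2) gave 4 with scaling on kept probes, 1 with the 16 arrays only, and 0 under median scaling, no filter, trended robust eBayes, the clock score, without the high clock arrays, or with detection on all 16 arrays, a filter that removes Acot1 and Angptl4.

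With the replicate number as a block (replicate block), the counts were 19 for the slope, 5 for the mg slope, 1 for any difference, 0 for departure from a line, 8 for the 3 doses against water, 2 for 0.1X, 0 for the slope among extract doses and 1 for 3X with the rest. Leaving out single arrays gave 2 to 28, 1 to 11, 0 to 8, 0 to 2, 0 to 10, 0 to 5, 0 to 3 and 0 to 2 in the same order (3X with the rest was 0 without 3X replicate 1, 2 or 3 and 2 without 1X replicate 2 or AFFB replicate 1), and 28 to 35 of the 36 called probes kept their closest shape, as did 29 under median scaling. The 2 probes that departed from a line and the 3 with a slope among extract doses were called without 3X replicate 1, and 1 of each without AFFB replicate 1. Scaling on kept probes, the contrasts of 3X and of 1X with 3X against the rest, and the adipocyte mean without Lpl were chosen after seeing the data. Probes near background, such as Moxd1 in water, give bounds.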

Other observations

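Before normalization, the median log2 signal of the kept probes per array had group medians of 5.20 in water, 5.24 at 0.1X, 5.37 at 1X and 5.39 at 3X, a difference that quantile normalization removes.

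Mat1a, which makes S-adenosylmethionine, read 9.90, 9.53, 9.87 and 9.91 in water, 10.59, 10.46, 10.22 and 10.52 at 0.1X, 10.23, 10.98, 10.46 and 10.60 at 1X, and 10.80, 10.89, 11.20 and 10.25 at 3X. Every extract array lay above every water array, and neither the slope nor the contrast of the 3 doses with water passed (adjusted p = 0.107 and 0.182). It was named as a gene of the one-carbon list, and the share of all probes set apart in this way was not counted.

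AFFB carried nearly the anthocyanin dose of 1X. Moxd1 read 4.47, 4.23, 4.63 and 4.46 there and Reep6 8.27, 6.89, 7.05 and 7.69, and Slc7a3 read 8.84, 8.05, 8.01 and 8.73. The difference of AFFB from 1X was called for 1 of all 15328 probes (0.00652%), and it was none of the genes named here.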
